A study of Mus musculus with 8 samples.

Results

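The genes of cholesterol and fatty acid synthesis were followed in mouse kidney duct cells of the line IMCD exposed to added NaCl. They were taken by symbol from the deposited counts as a list of 31 genes, all of which had a row among the 15288 genes in the table and all of which passed the filter on low counts that left 14024 genes. The list was split by role into 7 enzymes from HMG-CoA synthase to squalene synthase and 10 enzymes from squalene to cholesterol. The rest were 6 genes of sterol sensing, regulation and transport, and 8 enzymes of fatty acid synthesis, elongation and desaturation.

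The cells were kept for 12 h in DMEM without serum, either with no added NaCl (control, replicates 1 to 4) or with 100 mmol NaCl (replicates 5 to 8), an amount the labels give without a volume. Both groups had been grown in medium with serum, so both had been moved to serum-free medium for the same time. No label says that the 4 libraries of a group came from separate cultures, so the p-values measure the spread between libraries, which may be technical. Totals were 41.77 to 47.57 M counts in the control libraries and 35.29 to 42.39 M in the NaCl libraries, and the counts of the 31 genes ran from 375 (Tm7sf2) to 76894 (Scd2) per library.

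The label of the cell line was compared with cell type markers. The simple epithelial keratin gene Krt18 had 187 to 245 CPM (counts scaled to the library total after TMM factors, as cpm in edgeR) in control and 192 to 233 CPM in NaCl libraries, and Epcam had at least 24.6 CPM in every library. The collecting duct water channel gene Aqp2 had at most 15 counts in any library, and the epithelial cadherin gene Cdh1 at most 30. The 11 collecting duct and epithelial markers summed to 436 to 565 CPM in control and 427 to 538 CPM in NaCl libraries. Of the 11, Hoxb7 (log2 fold change -0.25) and Gata3 (-0.44) were called lower, Avpr2 (2.60) and Cdh1 (1.43) higher, 5 were not called and 2 were not tested. Over all genes tested, 17.2% were called lower and 16.9% higher. Avpr2 had at most 48 counts in any library, with 0 to 0.266 CPM in control and 0.378 to 1.16 CPM in NaCl libraries. The proximal tubule marker Lrp2 had 160.1 to 202.7 CPM in control and 152 to 174 CPM in NaCl libraries and was not called, and the intercalated cell marker Atp6v0d2 was called lower (1.45 to 2.22 and 0.194 to 0.449 CPM). The fibroblast markers, all 5 with counts, summed to 2753 to 3184 CPM in control and 2405 to 2821 CPM in NaCl libraries. Most of that sum was Col1a1 (2317 to 2651 CPM in control and 1951 to 2309 CPM in NaCl libraries), which was called lower, as was Pdgfra, while Pdgfrb was called higher (34.5 to 43.1 and 57.6 to 65.1 CPM) and Col1a2 and Dcn were not called. The 3 thick limb and distal convoluted tubule markers summed to 2.60 to 4.15 CPM in control and 4.65 to 4.92 CPM in NaCl libraries, and none was called. Endothelial markers, 1 of 4 with counts, reached at most 0.797 CPM, and no adipocyte marker had a row. The leukocyte markers, 3 of 5 with counts, summed to 12.97 to 17.9 CPM in control and 21.3 to 26.1 CPM in NaCl libraries. Of the 3, Ptprc was called higher (3.62 to 4.47 CPM in control and 12.98 to 14.03 CPM in NaCl libraries), and Cd68 and Csf1r were not called, with log2 fold changes of -0.51 and -0.05. The part of these marker levels in the results below was not tested. In RNA from a whole culture, fewer cells of a type and less RNA per cell cannot be told apart.

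Cells make cholesterol from acetyl-CoA through mevalonate, farnesyl diphosphate and squalene, and make fatty acids from the same acetyl-CoA through malonyl-CoA. Both routes are controlled in large part by the SREBP transcription factors, which are made as precursors in the endoplasmic reticulum. When sterols are low the escort protein SCAP carries the precursors to the Golgi for cleavage, and when sterols are plentiful INSIG proteins hold SCAP and the precursors back. SREBP proteins bind promoters of these genes together with the factor NF-Y, which recognises CCAAT.

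Promoter sequence was examined because these genes are known to share such regulators. RefSeq promoters on GRCm38.p6 were matched by symbol for 24 of the 31 genes, in 32 windows, and the 250 bases before each start were searched on both strands. CCAAT, read as ATTGG on the other strand, was found in the windows of 19 of these 24 genes (79.2%), where 40.8% of the genes tested and 37.5% of all genes with a window held it. All 14 sterol synthesis enzymes with a window held it, against 1 of 5 fatty acid enzymes, which was Fasn. The SREBP-type sequence TCACNCCAC was found in 1 of 24 genes (4.17%), which was Hmgcs1, and in 1.22% of all genes. The E-box CACGTG was found in 5 of 24 genes (20.8%), against 9.74% of the genes tested and 6.86% of all genes. These matches are descriptions of letters in a window and not binding sites, and genes with several windows have more chances of a match.

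The promoters below show where these letters lie in Hmgcs1, a gene that fell with NaCl, in Pmvk and Fasn, which rose, and in Insig2, which was not called. They were picked from windows that hold CCAAT and overlap no annotated exon. Among these, called genes were picked by their fold change and genes not called by their number of CCAAT matches. Ebp, which was not called and was picked by the same rule with 2 matches, is not shown. Capitals mark CCAAT or ATTGG and, in Hmgcs1, the TCACNCCAC match, which begins 137 bases before the start. Each sequence runs 5′ to 3′ on the strand of its gene and ends at the base before the start. The positions are chr13:119690101-119690350 for Hmgcs1 (plus strand), chr3:89454291-89454540 for Pmvk (plus strand), chr11:120824548-120824797 for Fasn (minus strand) and chr1:121332590-121332839 for Insig2 (minus strand).
Hmgcs1: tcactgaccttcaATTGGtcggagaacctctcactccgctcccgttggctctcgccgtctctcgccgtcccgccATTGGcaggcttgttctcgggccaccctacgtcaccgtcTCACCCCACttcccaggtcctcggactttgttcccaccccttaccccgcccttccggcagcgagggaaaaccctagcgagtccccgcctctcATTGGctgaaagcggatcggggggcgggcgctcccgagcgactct
Pmvk: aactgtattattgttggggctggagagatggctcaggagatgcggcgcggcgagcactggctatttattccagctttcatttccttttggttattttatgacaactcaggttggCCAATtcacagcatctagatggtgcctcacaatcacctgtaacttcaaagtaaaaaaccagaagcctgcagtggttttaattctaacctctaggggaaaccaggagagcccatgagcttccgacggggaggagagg
Fasn: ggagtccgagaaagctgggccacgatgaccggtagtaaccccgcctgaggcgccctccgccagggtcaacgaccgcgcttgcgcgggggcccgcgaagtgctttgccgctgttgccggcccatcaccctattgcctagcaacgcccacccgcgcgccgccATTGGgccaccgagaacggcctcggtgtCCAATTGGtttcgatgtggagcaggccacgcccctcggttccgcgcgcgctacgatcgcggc
Insig2: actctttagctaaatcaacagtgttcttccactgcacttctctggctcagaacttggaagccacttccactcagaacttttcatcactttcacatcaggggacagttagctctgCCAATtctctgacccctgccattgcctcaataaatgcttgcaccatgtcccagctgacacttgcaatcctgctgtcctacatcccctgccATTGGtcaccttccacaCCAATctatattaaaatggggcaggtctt
Hmgcs1, Fasn and Insig2 each held 3 matches of CCAAT on either strand, and Pmvk held 1. These numbers cannot be set against the outcomes, because Insig2 was picked for its number of matches. In Fasn a pair of the matches overlap as CCAATTGG. Over all genes with a window, whether shown or not, CCAAT was found in 4 of the 6 called higher (not in Acly or Elovl6), both called lower and 13 of the 16 not called.

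The 31 lipid synthesis genes changed little with NaCl in the fit with the group as its sole term. With edgeR's quasi-likelihood test a gene was called at a Benjamini-Hochberg adjusted p-value under 0.05 over all genes tested, and 8 of the 31 genes were called, where 34.1% of all genes tested were called. Of these, 6 were higher with NaCl (Dhcr7, Pmvk, Fasn, Elovl6, Lss and Acly), where 16.9% of all genes tested were called higher. The other 2, Cyp51 and Hmgcs1, were lower, where 17.2% of all genes tested were called lower. For 5 genes (Dhcr7, Pmvk, Fasn, Elovl6 and Cyp51) all 4 NaCl libraries lay beyond all 4 control libraries, where 33.4% of all genes tested had no overlap. With a linear drift over the library number in the fit, the order turned, with 11 of the 31 genes called against 24.1% of all genes tested. At an unadjusted p-value under 0.05, 10 of the 31 genes passed (32.3%), where 43.3% of all genes tested did.

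The changes were also small in size. The median absolute log2 fold change was 0.05 over the 31 genes, 0.14 over all genes tested, and 0.11 over the 9356 genes whose mean level lay in the same range, from 12.4 to 1651 CPM. None of the 31 genes changed by more than 1.25-fold in either direction, where 22.5% of all genes tested and 10.5% of those in the same range of levels did so. This bound did not hold with a linear drift over the library number in the fit, where the log2 fold change was 0.41 for Idi1 and 0.39 for Fasn and that of Dhcr7 (0.32) lay at the bound. The log2 fold changes ran from -0.17 (Cyp51) to 0.28 (Dhcr7), with a median of -0.01 against 0.003 over all genes tested. That median was 0.09 with the linear drift and lay between -0.03 and 0.02 when 1 library was left out. In 29 of the 31 genes the 95% interval of the fold lay wholly within 1.25-fold in both directions, where it did so in 7319 of the 14024 genes tested. The exceptions among the 31 were Dhcr7 and Pmvk, whose intervals reached 1.32 and 1.28. The median coefficient of variation between libraries was 5.19% in control and 3.96% in NaCl for these genes.

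**Figure D1:**
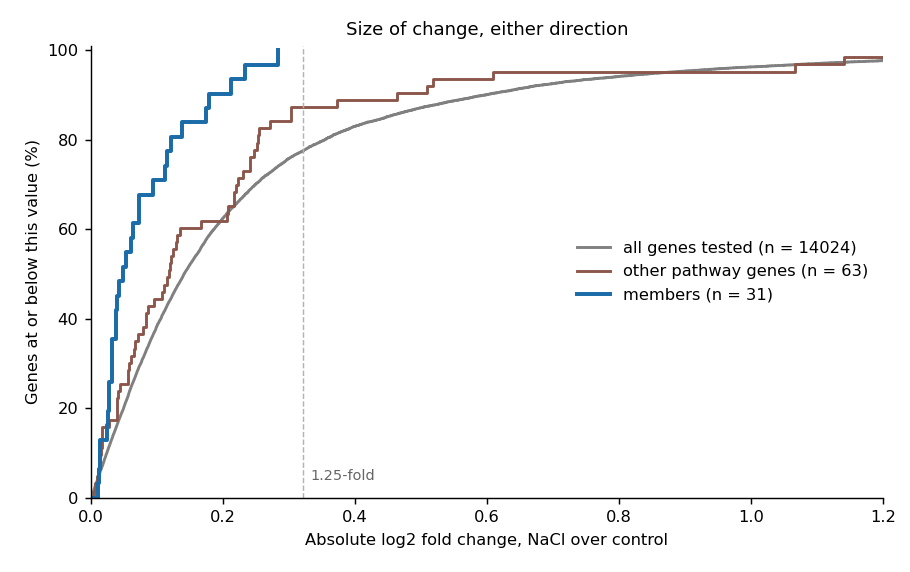
Cumulative percentage of genes (vertical axis) at or below a given absolute log2 fold change, NaCl over control (horizontal axis), for the 31 lipid synthesis genes (blue), 63 other genes of the same pathways (brown) and all 14024 genes tested (grey); the axis stops at 1.2. The blue line reaches its top at 0.28, left of the dashed line at 1.25-fold, while 22.5% of all genes tested lie beyond that line.

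**Figure D2:**
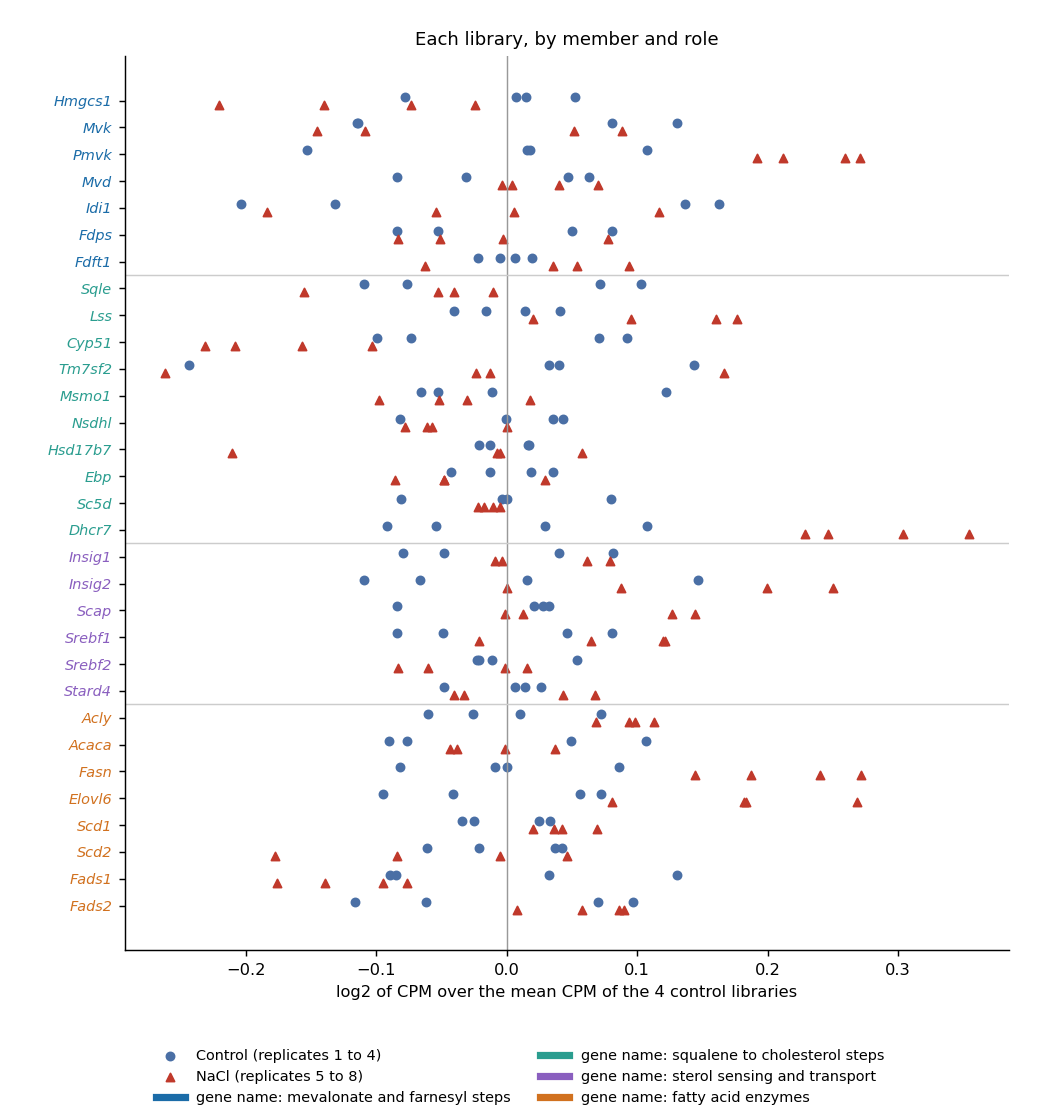
Level of each gene in each library as the log2 of its CPM over the mean of the 4 control libraries (horizontal axis), with control libraries as blue circles and NaCl libraries as red triangles and gene names coloured by role. The triangles lie wholly right of the circles for Pmvk, Dhcr7, Fasn and Elovl6, wholly left for Cyp51, and overlap the circles in the other 26 genes.

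Of the 7 enzymes that lead from HMG-CoA synthase to squalene, Pmvk rose, Hmgcs1 fell and 5 were not called, so that 28.6% were called, against 34.1% of all genes tested. Pmvk (ENSMUSG00000027952, chr3:89454541-89469013 on GRCm38), which encodes phosphomevalonate kinase, had 36.6, 39.0, 32.5 and 36.6 CPM in control replicates 1 to 4 and 41.9, 41.3, 43.3 and 43.7 CPM in NaCl replicates 5 to 8. Every NaCl library was above every control library, and the log2 fold change was 0.23 (SE 0.056; edgeR adjusted p = 0.00361). With a linear drift over the library number Pmvk was not called (log2 fold change 0.24, edgeR adjusted p = 0.104). Hmgcs1 (ENSMUSG00000093930, chr13:119690379-119708260), which encodes the cytosolic HMG-CoA synthase, had 369, 393, 391 and 403 CPM in control and 353, 334, 369.7 and 383 CPM in NaCl libraries. The groups overlapped, with NaCl replicates 7 and 8 above control replicate 1, and the log2 fold change was -0.11 (SE 0.042; edgeR adjusted p = 0.0476). The Hmgcs1 call was lost in 6 of the 8 fits that left out a library, with adjusted p-values up to 0.178, and held without control replicate 1 or NaCl replicate 8.

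Mvk acts between the steps of Hmgcs1 and Pmvk, and Mvd, Idi1, Fdps and Fdft1 follow Pmvk in that order. Mvk (mevalonate kinase) had 37.6, 38.9, 32.9 and 32.9 CPM in control and 37.8, 36.9, 33.0 and 32.2 CPM in NaCl libraries, which are nearly the same 4 values in each group. Idi1, the isomerase of isopentenyl diphosphate, had 56.7, 57.7, 47.0 and 44.8 CPM in control and 55.9, 49.6, 51.7 and 45.4 CPM in NaCl libraries. Its fold was 0.982 with a 95% interval from 0.856 to 1.13, and its control libraries had the highest coefficient of variation of the 31 genes (12.8%). Fdps (farnesyl diphosphate synthase) had a mean of 257 ± 14.1 CPM in control and 255 ± 12.5 CPM in NaCl libraries (SD, n = 4 each), a fold of 0.991 (95% interval 0.930 to 1.06). The decarboxylase gene Mvd had a fold of 1.02 (0.952 to 1.09) and the squalene synthase gene Fdft1 a fold of 1.02 (0.969 to 1.08). Part of the longest transcript is shared with other annotated genes for Idi1 (33.3%, Gm13502), Fdft1 (20.9%, Ctsb), Fdps (16.7%, Gm43738) and Hmgcs1 (16.2%, Gm48342), and their counts are uncertain to that extent. Summed over the 7 genes, the level was 1001 ± 25.8 CPM in control and 979 ± 29.7 CPM in NaCl libraries (SD, n = 4 each), and the ranges overlapped.

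Of the 10 enzymes from squalene to cholesterol, Dhcr7 and Lss rose, Cyp51 fell and 7 were not called, so that 3 of 10 were called, against 34.1% of all genes tested. Dhcr7 (ENSMUSG00000058454, chr7:143823145-143848410), which encodes a reductase at the end of the route, had 34.99, 36.9, 32.2 and 33.0 CPM in control and 40.7, 42.3, 40.2 and 43.8 CPM in NaCl libraries. All NaCl libraries lay above all control libraries, and the fold of 1.22 (95% interval 1.12 to 1.32; log2 fold change 0.28, SE 0.054; edgeR adjusted p = 6.83e-04) was the highest of the 31 genes. Cyp51 (ENSMUSG00000001467, chr5:4081145-4104746), which encodes the demethylase of lanosterol, had 292, 296, 264 and 259 CPM in control and 258.5, 237, 240.4 and 249 CPM in NaCl libraries. The groups were separate by a narrow gap between control replicate 4 (259.3 CPM) and NaCl replicate 5 (258.5 CPM), and the fold was 0.886 (95% interval 0.8291 to 0.947; log2 fold change -0.17, SE 0.045; edgeR adjusted p = 0.00714). Lss (ENSMUSG00000033105, chr10:76531588-76557138), which encodes lanosterol synthase, the step just before Cyp51, had 95.4, 93.8, 99.2 and 97.4 CPM in control and 97.8, 103, 109 and 108 CPM in NaCl libraries. NaCl replicate 5 lay inside the control range, and the log2 fold change was 0.12 (SE 0.040; edgeR adjusted p = 0.0355). The Lss call was lost in 5 of the 8 fits that left out a library (control replicate 1 or 2, or NaCl replicate 6, 7 or 8), with adjusted p-values up to 0.125.

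The enzymes after Cyp51 up to Dhcr7 were not called. With a linear drift over the library number neither Lss (log2 fold change -0.02, edgeR adjusted p = 0.884) nor Cyp51 (-0.01, 0.941) was called. Sqle, the squalene epoxidase that commits squalene to sterols, had 189, 184, 167 and 163 CPM in control and 169, 171, 174 and 158 CPM in NaCl libraries, a fold of 0.957 (95% interval 0.891 to 1.03). All of Msmo1, Nsdhl, Hsd17b7, Ebp and Sc5d, which remove methyl groups and move double bonds in the sterol ring, had folds between 0.967 and 0.990 and intervals that reached no lower than 0.899 and no higher than 1.05. Sc5d had 67.8, 64.0, 64.1 and 60.6 CPM in control and 63.9, 63.7, 63.1 and 63.3 CPM in NaCl libraries, so its NaCl libraries lay inside the control range. Tm7sf2, a sterol reductase and the lowest of the 31 genes, had 13.9, 12.9, 12.8 and 10.6 CPM in control and 10.5, 12.3, 14.1 and 12.4 CPM in NaCl libraries, and its interval (0.849 to 1.14) was the widest of this group. Of its exon length 12.08% overlaps Vps51 on the same strand, and its counts are uncertain to that extent. The sum of the 10 genes was 955 ± 44.0 CPM in control and 922 ± 11.9 CPM in NaCl libraries (SD, n = 4 each), with overlapping ranges.

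With all 8 libraries, none of the 6 genes of sterol sensing, regulation and transport was called by edgeR with the group as its sole term, DESeq2 or limma-voom. Of all genes tested, 34.1%, 33.4% and 34.3% were called by these tools in that order. With the library number centred within its group, edgeR called Insig2 (log2 fold change 0.14, adjusted p = 0.00505) and Srebf1 (0.07, 0.0472) higher, where 43.0% of all genes tested were called. At an unadjusted p-value under 0.05, 1 of the 6 (Insig2) passed, where 43.3% of all genes tested did. Srebf2, whose product acts mainly on sterol genes, had 438, 415, 418 and 415 CPM in control and 398, 426, 421 and 404 CPM in NaCl libraries, a fold of 0.978 (95% interval 0.931 to 1.03). Srebf1, whose products act mainly on fatty acid genes, had 130.1, 133, 142 and 146 CPM in control and 136, 144, 150.0 and 149.9 CPM in NaCl libraries, a fold of 1.05 (0.987 to 1.12). The counts are per gene, so the transcript forms of Srebf1 were not separated, and cleavage of the SREBP proteins was not measured.

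The retention gene Insig1, itself a known SREBP target, had 118, 121, 111 and 108 CPM in control and 119, 114, 121 and 114 CPM in NaCl libraries, a fold of 1.02 (95% interval 0.963 to 1.09). Insig2, the second such gene, had 53.6, 55.2, 58.4 and 64.0 CPM in control and 57.8, 61.4, 68.7 and 66.3 CPM in NaCl libraries. Its fold was 1.10 (1.004 to 1.21) and its edgeR adjusted p was 0.101. The Insig2 value passed the threshold without control replicate 4 (adjusted p = 0.0179) and without NaCl replicate 5 (0.0333). The escort gene Scap, which shares 15.6% of its longest transcript with 5830462I19Rik, had a fold of 1.05 (0.984 to 1.12), and Stard4, which encodes a cytosolic sterol carrier, had 154 ± 3.48 CPM in control and 155 ± 5.81 CPM in NaCl libraries (SD, n = 4 each), a fold of 1.01 (0.956 to 1.06).

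**Figure D3:**
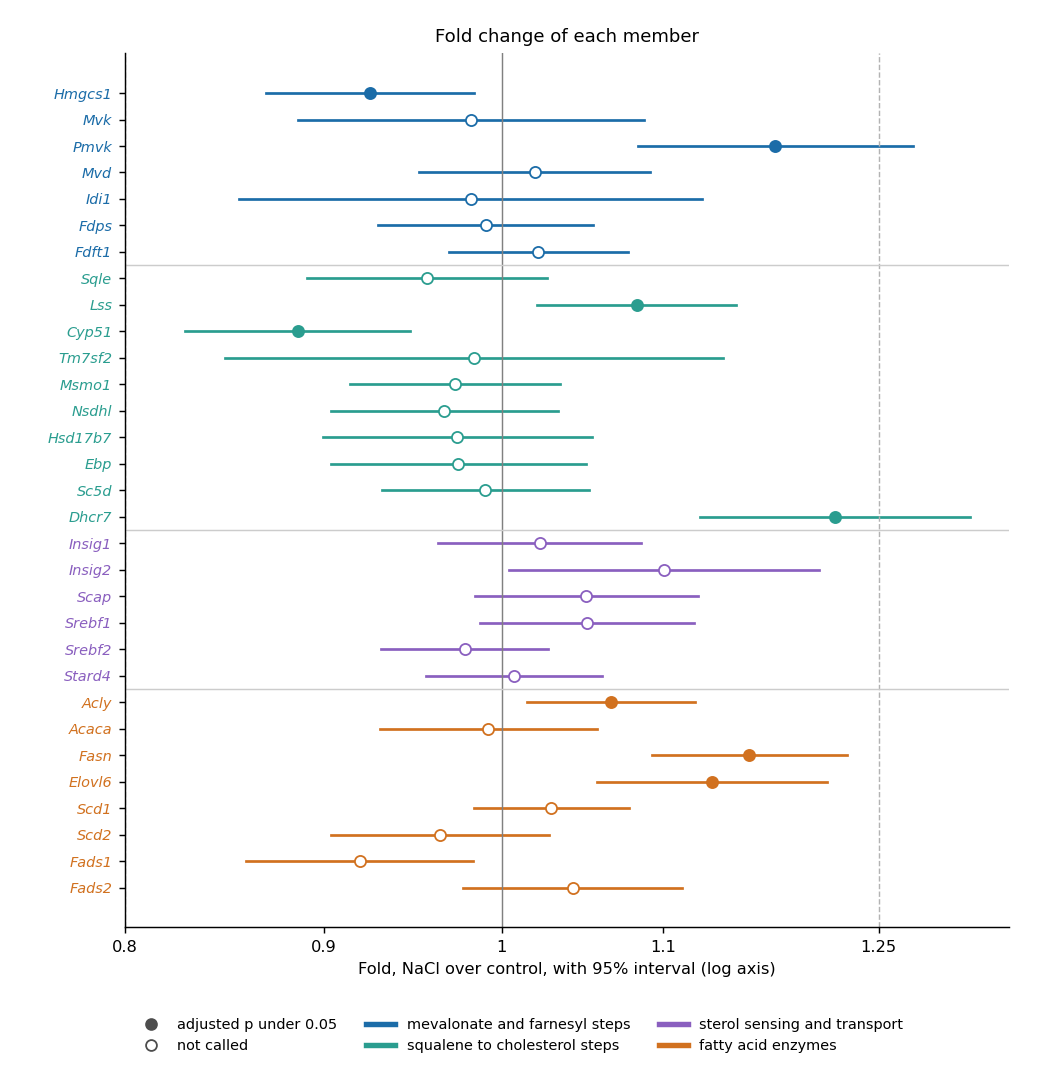
Fold of each of the 31 genes, NaCl over control, on a log axis, with its 95% interval from the edgeR fit and with genes in pathway order and coloured by role; filled circles are called and open circles are not. All point estimates lie between 0.8 (the left edge) and the dashed line at 1.25, and none of the 6 genes labelled sterol sensing and transport is filled.

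Of the 8 fatty acid enzymes, Fasn, Elovl6 and Acly rose and 5 were not called by edgeR, so that 37.5% were called, against 34.1% of all genes tested. Fads1 was among the 5 and was called lower by DESeq2 (adjusted p = 0.0468), with median-of-ratios factors (0.0456), with no filter (0.0458) and with the library number centred (8.31e-04). Fasn (ENSMUSG00000025153, chr11:120805846-120824547), which encodes fatty acid synthase, had 362, 339, 341 and 323 CPM in control and 403, 412, 389 and 377 CPM in NaCl libraries. Every NaCl library was above every control library, and the fold was 1.16 (95% interval 1.09 to 1.23; log2 fold change 0.21, SE 0.039; edgeR adjusted p = 5.17e-04). Elovl6 (ENSMUSG00000041220, chr3:129532355-129638495), which encodes an elongase of the saturated chains that fatty acid synthase makes, had 95.2, 96.2, 85.7 and 88.9 CPM in control and 110.2, 96.8, 104 and 104 CPM in NaCl libraries. The groups did not overlap, though NaCl replicate 6 exceeded control replicate 2 only slightly, and the log2 fold change was 0.18 (SE 0.047; edgeR adjusted p = 0.00657). Acly (ENSMUSG00000020917, chr11:100476353-100528000), which encodes the ATP citrate lyase that supplies cytosolic acetyl-CoA to both routes, had 364, 349, 340.0 and 332 CPM in control and 374, 369.5, 363 and 371 CPM in NaCl libraries. NaCl replicate 7 lay below control replicate 1, the log2 fold change was 0.09 (SE 0.034; edgeR adjusted p = 0.042), and the call held in only 1 of the 8 fits that left out a library, the fit without control replicate 1, with adjusted p-values elsewhere up to 0.134.

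Acaca, which encodes the carboxylase that makes malonyl-CoA between the steps of Acly and Fasn, had 139.7, 134, 122 and 123 CPM in control and 133, 129.5, 126 and 126 CPM in NaCl libraries. Its fold was 0.992 (95% interval 0.930 to 1.06), and it was not called, but with the linear drift it was called higher (log2 fold change 0.18, edgeR adjusted p = 0.0366). Of its longest annotated transcript 64.3% is shared with Gm5182, and its counts are uncertain to that extent.

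Scd1, Scd2, Fads1 and Fads2 encode desaturases. With TMM factors, the filter, all 8 libraries and the group as its sole term, edgeR called none of them. With the linear drift Scd2 was called lower and Fads2 higher. Scd2, the most abundant of the 31 genes, had 1611, 1657, 1731 and 1724 CPM in control and 1486, 1586, 1674 and 1736 CPM in NaCl libraries, a fold of 0.964 (95% interval 0.904 to 1.03). Scd1, which encodes a stearoyl-CoA desaturase of the same family, had 341, 328, 339 and 325 CPM in control and 338, 342, 349.6 and 343 CPM in NaCl libraries, a fold of 1.03 (0.984 to 1.08). No stretch of Scd1 or Scd2 met the limit for shared sequence (at least 75 bases at 98% identity).

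Fads1 and Fads2 encode desaturases of polyunsaturated fatty acids. Fads1 had 293, 274, 251 and 252 CPM in control and 254, 250.4, 243 and 237 CPM in NaCl libraries, a log2 fold change of -0.12 with an edgeR adjusted p of 0.0513, just outside the threshold. It passed without control replicate 3 (adjusted p = 0.0237) or 4 (0.0185), and its log2 fold change turned to 0.10 with the linear drift. Fads2 had 319.6, 314, 286 and 276 CPM in control and 317, 318, 311 and 300.4 CPM in NaCl libraries, a log2 fold change of 0.06 (edgeR adjusted p = 0.317). The sum of the 8 fatty acid genes was 3489 ± 33.9 CPM in control and 3518 ± 77.8 CPM in NaCl libraries (SD, n = 4 each), with Scd2 as its largest term.

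Levels were compared between genes only per length, as CPM per kb of the transcript with the longest coding sequence. On this scale Scd2 was highest at 308 CPM per kb in control libraries, followed by Fdps at 186, Hmgcs1 at 112 and Fads2 at 94.9 CPM per kb. The lowest were Tm7sf2 at 8.53, Sc5d at 13.4, Acaca at 13.6 and Elovl6 at 15.4 CPM per kb. Levels differed along the sterol route: Msmo1 had 83.6 and Cyp51 70.7 CPM per kb, where Lss had 20.7, Dhcr7 20.8 and Ebp 17.7. The highest 4 and the lowest 3 genes of this order kept their places in the NaCl libraries. The order depends on the transcript that sets the length.

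**Figure D4:**
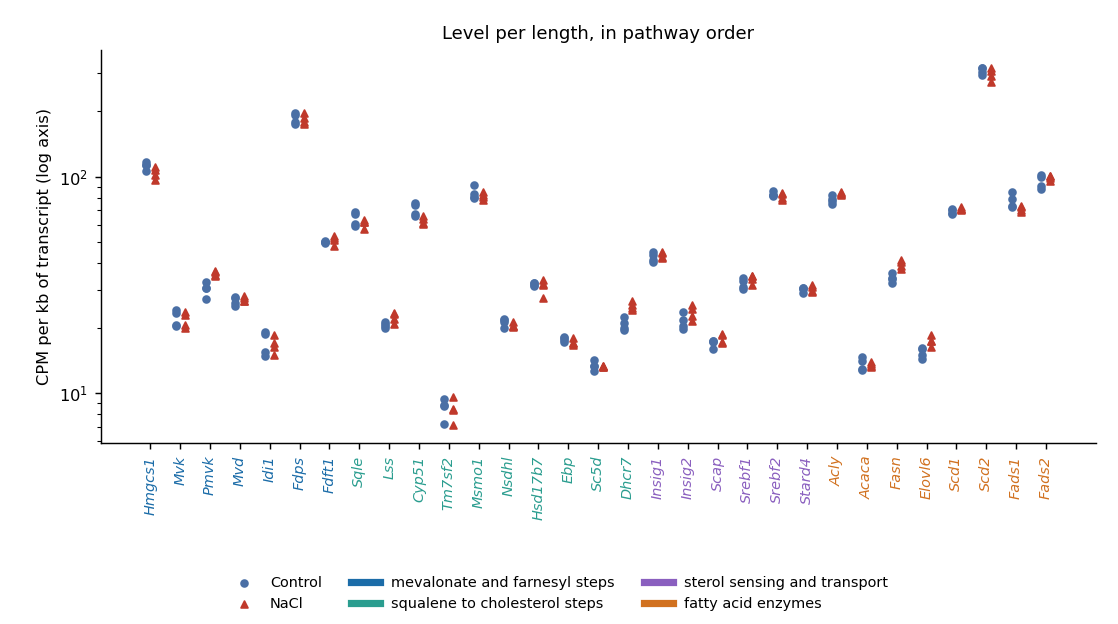
Level of each gene per library as CPM per kb of transcript, on a log axis, with genes in pathway order and coloured by role, control libraries as blue circles and NaCl libraries as red triangles. Levels span from 8.53 (Tm7sf2) to 308 (Scd2) CPM per kb in the control means, and for each gene both groups sit at nearly the same height.

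Differences between libraries of the same group were as large as the group differences in many of these genes. In the control group alone, replicates 3 and 4 were both below replicates 1 and 2 in 20 of the 31 genes (64.5%, against 24.9% of all genes tested) and both above them in 5 (16.1%, against 25.0%). In the NaCl group alone, replicates 7 and 8 were both below replicates 5 and 6 in 7 genes (22.6%, against 20.6%) and both above them in 10 (32.3%, against 20.4%). In 5 genes (Mvk, Nsdhl, Acaca, Fads1 and Fads2) control replicates 3 and 4 were both below replicates 1 and 2, and NaCl replicates 7 and 8 were both below replicates 5 and 6. In 5 others (Lss, Hsd17b7, Insig2, Srebf1 and Scd2) the order was the opposite in both groups. These 10 genes are 16.1% and 16.1% of the 31, where the same patterns were met by 8.14% and 9.47% of all genes tested. For Mvk the later pair was lower than the earlier pair by 0.22 in control and by 0.20 in NaCl libraries on the log2 scale, against a group difference of -0.03. The labels do not say what the library number stands for, and every NaCl library has a higher number than every control library.

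The calls were repeated with the library number in the fit. With the number centred within each group, 11 of the 31 genes were called, where 43.0% of all genes tested were called, and Insig2 and Srebf1 (both higher) and Fads1 (lower) were added to the 8. With the number as a linear drift from 1 to 8, 11 of the 31 genes were called, where 24.1% of all genes tested were called, but only 5 of the 8 were among them (Dhcr7, Fasn, Elovl6, Acly and Hmgcs1). The drift fit added Idi1 (log2 fold change 0.41, edgeR adjusted p = 0.00153), Mvk (0.31, 0.0237), Fads2 (0.27, 5.39e-04), Acaca (0.18, 0.0366) and Fdps (0.17, 0.0407) as higher and Scd2 (-0.28, 7.48e-05) as lower, and gave Fasn a log2 fold change of 0.39 (1.10e-06). In it Pmvk (0.24, 0.104), Cyp51 (-0.01, 0.941) and Lss (-0.02, 0.884) were not called. A drift across the groups and an effect of NaCl cannot be told apart where both follow the library number. Dhcr7, Fasn and Elovl6 were called higher with all 8 libraries, in all 8 fits that left out a library, and in both fits with the library number.

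**Figure D5:**
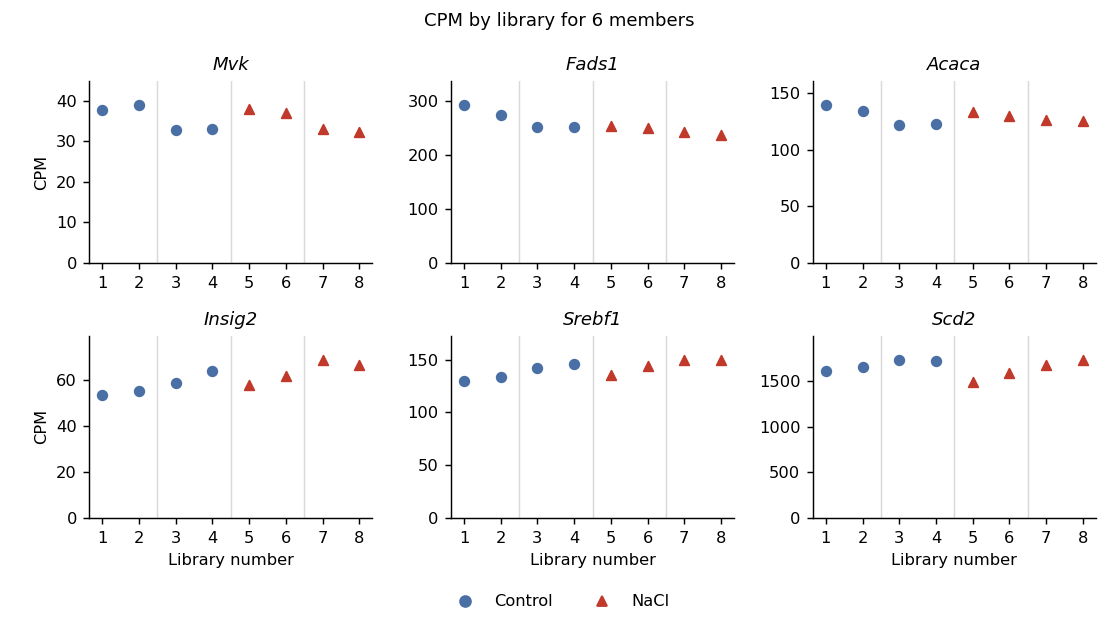
CPM (vertical axis, from 0) against library number (horizontal axis) for Mvk, Fads1, Acaca, Insig2, Srebf1 and Scd2, with control libraries 1 to 4 as blue circles and NaCl libraries 5 to 8 as red triangles; grey lines separate the pairs of libraries. In the upper row the later pair is lower than the earlier pair within both groups, and in the lower row it is higher within both.

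Other genes of the same pathways were examined from 4 further lists of 69 genes in all, of which 63 were tested and 25 were called (39.7%, against 34.1% of all genes tested), 10 higher and 15 lower. Around SREBP processing, 4 of 10 genes were called, a share also near that of all genes tested, with Rnf145 higher and Mbtps2, Erlin1 and Pgrmc1 lower, genes named after their values were seen. Among genes for the uptake, storage and export of sterols 8 of 18 were called (44.4%, against 34.1%), 4 in each direction. The median absolute log2 fold change of that list was 0.23, against 0.14 over all genes tested and 0.04 for the 17 sterol synthesis enzymes. Abcg1, which encodes a sterol exporter, had 5.45, 5.07, 4.28 and 4.89 CPM in control and 15.5, 15.8, 15.3 and 11.8 CPM in NaCl libraries, a fold of 2.96 (95% interval 2.51 to 3.48; edgeR adjusted p = 1.45e-08). Mylip, which encodes a ubiquitin ligase for lipoprotein receptors, rose from 58.8 ± 3.34 to 84.2 ± 4.48 CPM (SD, n = 4 each; edgeR adjusted p = 4.95e-07).

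Both Soat1 and Npc2 were lower in every NaCl library. Soat1, which encodes the enzyme that esterifies cholesterol for storage, fell from 82.4 ± 1.497 to 54.0 ± 2.26 CPM, and Npc2, a lysosomal sterol carrier, fell from 497 ± 12.4 to 349 ± 14.5 CPM (SD, n = 4 each; edgeR adjusted p = 8.11e-09 and 1.23e-08). On the side of fatty acids, Me1, the malic enzyme that supplies NADPH, rose from 91.99 ± 4.27 to 203 ± 14.4 CPM (edgeR adjusted p = 1.22e-10), and Acss2, an acetyl-CoA synthetase, rose from 23.1 ± 2.31 to 28.5 ± 0.624 CPM (0.00244; SD, n = 4 each). Fads3 fell from 137 ± 2.33 to 111 ± 5.23 CPM (edgeR adjusted p = 1.07e-05), and Hsd17b12, a reductase of the elongation cycle, fell from 124 ± 6.95 to 104 ± 2.13 CPM (1.55e-04; SD, n = 4 each). Of these 8 genes, 6 kept their call with a linear drift over the library number, and Acss2 (adjusted p = 0.414) and Hsd17b12 (0.386) did not.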

How the data were processed

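Bulk RNA sequencing of 8 libraries was analysed from the table of raw counts per Ensembl gene that the authors deposited. Trim Galore 0.6.7, STAR and DESeq2 1.34.0 on mm10 are named, with no role, in the submitters' processing notes, and the counting program, annotation and strandedness are not given in the sources used here. The authors' normalized table was not used.

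Counts were fitted in R 4.3.3 with edgeR 4.0.16. The filter was filterByExpr with the groups and a minimum count of 10 (1264 genes removed, holding 0.0191% of counts). TMM factors and glmQLFit (robust, group as the sole term) gave log2 fold changes (NaCl over control), and p-values were adjusted by Benjamini-Hochberg over all genes tested. The standard error is the absolute log2 fold change over the square root of the F statistic, and 95% intervals use the fit's degrees of freedom. CPM used TMM-scaled totals.

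The genes, their role lists and the lists of other genes were chosen with earlier results of these data known, so they are no independent support. All 31 genes are named, and of the other lists the called genes at both ends of the log2 fold changes, 4 at each end, at a mean of at least 1 CPM. The 4 called genes of the SREBP processing list were named outside this rule.

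Alternatives were median-of-ratios factors, library totals, no filter, at least 10 counts in every library, DESeq2 1.42.0, limma-voom (limma 3.58.1), an adjusted p under 0.01, the library number in the fit, and leaving out each library. Positions, lengths and shared sequence (blastn 2.17.0, at least 75 bases at 98% identity) came from GENCODE M21 on GRCm38, the assembly also called mm10, and promoters from RefSeq on GRCm38.p6. Intervals cover the spread between these libraries only.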

Additional observations from a re-analysis of the deposited data

Results flagged for a closer look

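In 78 sets of 4 libraries (31 synthesis genes and 8 other pathway genes, each in both conditions), Dixon's test found 3 with a single distant library, and chance alone gives about 1 in 20 sets, or 3.9 here. The control libraries of Scap lay between 72.9 and 73.5 CPM apart from replicate 4 at 67.8 CPM. Leaving replicate 4 out moved the log2 fold change of Scap from 0.07 to 0.04, and neither value was called. The control libraries of Srebf2 lay between 415 and 418 CPM apart from replicate 1 at 437.7 CPM, and leaving it out moved the log2 fold change from -0.03 to -0.02. For Abcg1, NaCl replicate 8 had 11.8 CPM and the remaining NaCl libraries 15.3 to 15.8 CPM. The log2 fold change of Abcg1 moved from 1.56 to 1.65 when replicate 8 was left out. The cause of these deviations was not tested.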

How the results depend on the processing

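No paired analysis was possible because the groups share no replicate number: the labels number the control libraries 1 to 4 and the NaCl libraries 5 to 8. Over 7 settings (other scaling, filters and tools, and the library number centred), 209 of 217 values of the 31 genes kept their direction and side of the threshold, none reversed, and the 8 that crossed it were Fads1 (4 settings), Insig2, Srebf1, Hmgcs1 and Acly. The number of these genes called lower was 1 with library totals alone and 1 at an adjusted p under 0.01, in place of 2. At an adjusted p under 0.01, 1545 genes of the whole table were higher, 1600 lower and 8 other pathway genes lower, in place of 2371, 2418 and 15. Other pathway genes called were 23 lower with the number centred within its group and 6 higher with the linear drift, in place of 15 and 10. The letters CACNCCA were in the promoters of 5 of 24 genes (20.8%, against 18.1% of genes tested and 17.4% of all genes), where TCACNCCAC was in 1.

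Leaving out each library gave 4 to 6 genes of the list called higher and 1 to 2 lower. It gave 1972 to 2265 genes higher and 2038 to 2369 lower over the whole table, and 9 to 10 other pathway genes higher and 13 to 15 lower. The number called lower was 1 without control replicate 2 or NaCl replicate 5, 6 or 7, and Hmgcs1 was the gene lost. Signs of genes near 0 turned, with log2 fold changes from -0.0651 to 0.017 (Mvk), -0.0905 to 0.0289 (Idi1), -0.0451 to 0.0116 (Fdps), -0.10 to 0.0451 (Tm7sf2), -0.0421 to 0.0119 (Sc5d), -0.0427 to 0.0242 (Acaca), -0.0631 to 0.000235 (Msmo1), -0.0104 to 0.0268 (Stard4), -0.000729 to 0.0469 (Mvd), -0.0727 to 0.0155 (Hsd17b7). With the linear drift, 14 genes of the list turned sign, to 0.31 (Mvk), 0.41 (Idi1), 0.17 (Fdps), 0.15 (Sqle), -0.0197 (Lss), 0.0395 (Tm7sf2), 0.0786 (Nsdhl), 0.0943 (Sc5d), -0.18 (Insig2), -0.14 (Srebf1), 0.00284 (Srebf2), -0.035 (Stard4), 0.18 (Acaca), 0.10 (Fads1). The cause was not tested. The lowest count of the 31 genes in any library was 375. Strand was not stated, so reads from overlapping genes on opposite strands cannot be told apart.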
